A study of Mus musculus with 52 samples.

Results

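The interferon response genes described here are 42 genes, taken by symbol from a list of interferon-stimulated genes, of the 15692 genes counted in mouse frontal cortex. All 42 were found, and all 42 passed the filter on low counts. Since the members were chosen with earlier results of these data known, neither is a result. Messenger RNA was sequenced from 52 mice, with 1 library per sample, and 8 groups were formed by crossing APOE genotype, diet and sex. Every mouse carried the APP/PS1ΔE9 transgenes, which drive amyloid plaque formation, and had human APOE3 (APOE3+/+, called APP/E3) or human APOE4 (APOE4+/+, called APP/E4) in place of mouse Apoe by targeted replacement. No mice without the transgenes, or with mouse Apoe, were analysed here. Mice ate a normal diet (ND, Prolab Isopro RMH 3000) or a Western high-fat diet (HFD, D12079B), with 40% of its calories as fat (from anhydrous milk and corn oil), 42.6% as carbohydrate and 16.8% as protein. Among APP/E3 mice, 6 males and 7 females ate ND, and 6 males and 8 females ate HFD. Among APP/E4 mice, 6 males and 7 females ate ND, and 5 males and 7 females ate HFD. Per the labels, feeding began at 3.5 months of age on average and lasted 3 months, and behaviour was tested at 14.7 months on average. The sources used here state neither how these ages fit together nor which promoters drive the transgenes.

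Interferons are secreted proteins that bind receptors on the cell surface and activate Janus kinases, which phosphorylate transcription factors such as STAT2. A complex that holds STAT2 and IRF9 binds interferon-stimulated response elements (ISREs), other complexes bind gamma-activated sites (GAS), and both switch on antiviral genes. Those genes encode sensors of foreign RNA, transcription factors that feed back on the pathway, and effectors that block infection or tag proteins. In mouse models of amyloid deposition, microglia are known to be one source of such transcripts.

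The elements that these factors recognise can be read near the gene starts. RefSeq promoter windows (build GRCm38.p6, 250 bases before to 50 bases after the annotated start, while the counts were made on mm9) were found for 33 of the 42 members. The ISRE core GAAANNGAA, searched on both strands, stood in a window of 20 of 33 members (60.6%) and of 2638 of 27025 gene symbols (9.76%). The GAS core TTCNNNGAA, which reads the same on both strands, stood in a window of 8 of 33 members (24.2%) and of 9.55% of all symbols. Where a symbol had several windows, a match in any of them counted. Matches can overlap each other, and a match describes the letters only. The 5 stretches printed here were chosen because each holds several ISRE cores close together before the start of a gene that was called higher in females. Each is written 5′ to 3′ on the strand of its gene, and capitals mark the ISRE cores, which read TTCNNTTTC where the element lies on the opposite strand. Ifit3 is at chr19:34583364-34583445 (+), Ifit1 at chr19:34640770-34640823 (+), Isg15 at chr4:156200866-156200906 (-), Gbp3 at chr3:142559990-142560024 (+) and Bst2 at chr8:71537578-71537612 (-).
Ifit3: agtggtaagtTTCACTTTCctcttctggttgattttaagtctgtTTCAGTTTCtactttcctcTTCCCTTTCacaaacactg
Ifit1: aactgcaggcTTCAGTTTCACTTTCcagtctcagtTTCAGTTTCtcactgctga
Isg15: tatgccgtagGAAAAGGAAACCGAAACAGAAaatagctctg
Gbp3: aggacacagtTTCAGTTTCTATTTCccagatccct
Bst2: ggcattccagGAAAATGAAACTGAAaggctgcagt

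The stretches of Ifit3, Ifit1 and Isg15 hold 3 matches each, and those of Gbp3 and Bst2 hold 2 each. In Isg15, Gbp3 and Bst2 the matches overlap into 1 run. The other members with a log2 difference by sex above 0.5 were Ifi44 and Gbp2, which had the ISRE core in their windows, Oasl2 and Irf7, which had neither core, and Usp18, Rtp4 and Ifi27l2a, for which no window was matched.

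APP/E3 ND male 5 was sequenced deepest, at 39.4 M counts, and the other 51 libraries ranged from 5.34 to 13.1 M. Some libraries stood apart in ways that bear on every comparison by sex and, being spread unevenly, on those by genotype and diet too. In 11 libraries, all female, Csl lay between 0.0936 and 1.15 CPM (counts divided by the library total in M, scaled with TMM factors), against at least 10.7 CPM in the other 41, and Rps10 lay between 17.8 and 24.9 CPM, against at most 5.93 CPM. These are called Csl-low here. Every female group held some of them, and APP/E3 HFD females held the most. The titles of 14 of the 23 males carry no letter for sex, while those of the other 9 males and of all 29 females do, and what this stands for is not given in the sources used here. Such males were in every male group, least often in APP/E4 HFD. Xist, the RNA that silences one X in female cells, had 479 to 1104 CPM in females and at most 1.86 CPM in males, as the labelled sexes require.

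The log2 CPM of the 42 members were first averaged within each library. This mean ran from 2.32 to 2.86 in APP/E3 ND males (median 2.48), from 2.5 to 2.69 in APP/E3 HFD males (median 2.6), and from 2.39 to 2.77 in APP/E4 ND males (median 2.69). The 5 APP/E4 HFD males had 2.7, 2.74, 2.75, 2.98, 3.12. It ran from 2.5 to 3.22 in APP/E3 ND females (median 2.76), from 2.44 to 3.37 in APP/E3 HFD females (median 2.81), from 2.69 to 3.4 in APP/E4 ND females (median 2.9), and from 2.83 to 3.62 in APP/E4 HFD females (median 3.26). APP/E3 ND males had the lowest median and APP/E4 HFD females the highest, and groups next to each other in this order overlapped. Of the 10 libraries with the highest mean, all 10 were female, 6 were APP/E4, 6 were HFD and 2 were Csl-low. Of the 10 lowest, 7 were male and 8 were APP/E3. The median was 2.81 in Csl-low females and 3.1 in the other females. No test was run on this mean, since the members were chosen with results of these data known.

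**Figure D1:**
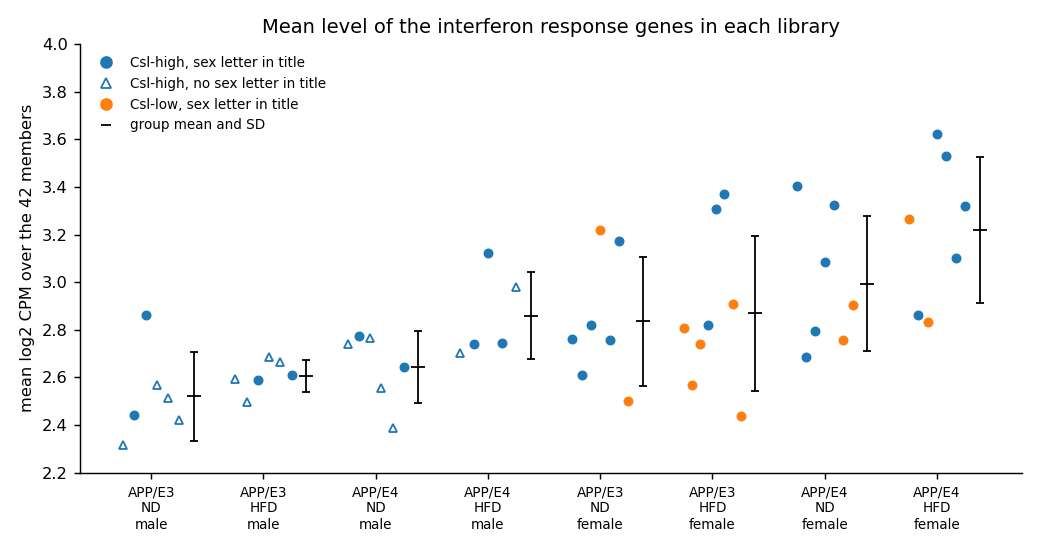
Mean log2 CPM of the 42 members (y axis) in each of 52 libraries, by group (x axis). Points are libraries, orange for Csl-low and open triangles for males with no sex letter in the title, and black bars are group means with SD. APP/E3 ND males lie between 2.32 and 2.86 and APP/E4 HFD females between 2.83 and 3.62.

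Female mice had higher levels of most members than male mice. With both genotypes and diets averaged, 39 of 42 members were higher in females and 23 of 42 were called higher, which means a Benjamini-Hochberg adjusted p under 0.05 over all 15195 genes tested by edgeR's quasi-likelihood test. None was called lower. Of all genes, 2.91% were called higher. The median log2 difference, female minus male, was 0.33 over the members and 0.003 over all genes. The calls took in 2 of 5 RNA sensors, 3 of 5 transcription factors and 18 of 32 effectors.

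Among the sensors, Ddx58 (RIG-I, a helicase that recognises viral RNA) ran from 4.25 to 9.64 CPM in the 23 males (median 6.54) and from 4.81 to 13.1 CPM in the 29 females (median 7.99). The sexes overlapped, with the upper females beyond the highest male, and the log2 difference was 0.32 ± 0.09 (SE; edgeR adjusted p = 0.0284). Ifih1 (MDA5, a sensor of long double-stranded RNA) ran from 3.94 to 8.99 CPM in males (median 6.4) and from 4.86 to 13.6 CPM in females (median 7.75). Its sexes overlapped likewise, and the call (0.28 ± 0.08, edgeR adjusted p = 0.0414) was lost on leaving out any 1 of 18 libraries. Dhx58 (LGP2, a helicase that modulates both) ran from 0.958 to 2.08 CPM in males (median 1.44) and from 0.705 to 3.27 CPM in females (median 1.69). The lowest and the highest Dhx58 libraries were both female, and the difference was not called (0.32 ± 0.12, edgeR adjusted p = 0.115). Eif2ak2 (PKR, a kinase that halts translation on double-stranded RNA) ran from 3.91 to 9.72 CPM in males (median 7.24) and from 5.26 to 13.8 CPM in females (median 7.84), and was not called (0.25 ± 0.09, edgeR adjusted p = 0.0857). Znfx1, a helicase that binds viral RNA, ran from 82.6 to 119.8 CPM in males and from 71.1 to 126 CPM in females, and its difference of −0.02 ± 0.04 was the smallest of the 5 sensors.

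The log2 differences of the 5 transcription factors lay between 0.09 and 0.61. Irf9, the DNA-binding part of the complex with STAT2, ran from 8.06 to 16.3 CPM in males (median 11.2) and from 9.83 to 22.5 CPM in females (median 13.7). Its ranges overlapped and it was called higher (0.31 ± 0.07, edgeR adjusted p = 0.00514). Irf7, which amplifies type I interferon production, ran from 1.16 to 6.07 CPM in males (median 2.83) and from 1.07 to 8.8 CPM in females (median 3.81). The lowest and the highest Irf7 values were both in females, and the gene was called higher (0.61 ± 0.17, edgeR adjusted p = 0.0249). Nlrc5, the transactivator of MHC class I genes, ran from 0.465 to 2.79 CPM in males (median 1.27) and from 0.486 to 2.83 CPM in females (median 2.02). These ranges were nearly the same, and the call (0.48 ± 0.15, edgeR adjusted p = 0.0466) was lost on leaving out any 1 of 33 libraries. Irf1, an early target of interferon gamma, ran from 5.6 to 9.31 CPM in males (median 7.02) and from 5.37 to 11.8 CPM in females (median 8.0), and missed the threshold (0.2 ± 0.06, edgeR adjusted p = 0.0509). Stat2, which carries the type I signal to the nucleus, ran from 24.3 to 38.2 CPM in males (median 29.5) and from 27.8 to 40.4 CPM in females (median 32.3), and was not called (0.09 ± 0.04, edgeR adjusted p = 0.171).

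The widest differences were those of effectors. Bst2 (tetherin, a membrane protein that holds budding virus on the cell) ran from 1.9 to 3.66 CPM in APP/E3 ND males (median 2.72), from 2.07 to 3.51 in APP/E3 HFD males (median 2.87) and from 1.74 to 4.73 in APP/E4 ND males (median 3.83). The 5 APP/E4 HFD males had 2.85, 3.11, 3.41, 5.03 and 5.04 CPM. In females Bst2 ran from 3.48 to 6.63 CPM in APP/E3 ND (median 4.69), from 2.82 to 9.44 in APP/E3 HFD (median 4.73), from 3.38 to 8.17 in APP/E4 ND (median 5.37) and from 3.28 to 11.7 in APP/E4 HFD (median 7.0). Of the 29 females, 17 stood above the highest male. The difference was 0.84 ± 0.13 (edgeR adjusted p = 2.89e-05), and inside the 4 combinations of genotype and diet it lay between 0.68 and 0.93.

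Oasl2, of the 2'-5' oligoadenylate synthetase family, ran from 2.88 to 7.82 CPM in APP/E3 ND males (median 3.66), from 3.61 to 6.59 in APP/E3 HFD males (median 4.55) and from 3.28 to 6.19 in APP/E4 ND males (median 5.17). The 5 APP/E4 HFD males had 5.04, 5.47, 5.95, 7.67 and 8.6 CPM. In females it ran from 5.03 to 12.5 CPM in APP/E3 ND (median 6.2), from 4.17 to 20.9 in APP/E3 HFD (median 7.01), from 4.76 to 14.8 in APP/E4 ND (median 6.44) and from 6.59 to 22.8 in APP/E4 HFD (median 12.9). Above 15 CPM stood 4 libraries, all of them HFD females, and 12 of the 29 females stood above the highest male. The difference was 0.92 ± 0.17 (edgeR adjusted p = 0.000451).

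Ifi44, an interferon-induced cytoplasmic protein, ran from 0.579 to 2.45 CPM in males (median 1.03) and from 0.809 to 5.16 CPM in females (median 2.02). Rtp4, a chaperone of receptors, ran from 1.16 to 3.49 CPM in males (median 2.12) and from 1.5 to 6.55 CPM in females (median 3.66). For both the sexes overlapped and the upper females lay beyond the highest male, with differences of 0.9 ± 0.15 for Ifi44 (edgeR adjusted p = 0.000104) and 0.71 ± 0.12 for Rtp4 (edgeR adjusted p = 0.000156). Gbp2, a GTPase that attacks the membranes around intracellular pathogens, ran from 2.25 to 6.17 CPM in males (median 4.07) and from 3.61 to 8.53 CPM in females (median 5.61). Its lowest female stood above the lowest male and the ranges overlapped (0.55 ± 0.09, edgeR adjusted p = 0.000161). Ifit3, which binds foreign RNA together with Ifit1, ran from 6.56 to 13.4 CPM in males (median 8.79) and from 6.47 to 23.5 CPM in females (median 12.8). Its lower ends were alike and its upper ends apart (0.6 ± 0.12, edgeR adjusted p = 0.000852). Ifit3 and its near-identical copy Ifit3b, which was also called (0.49 ± 0.12, edgeR adjusted p = 0.00907), may share reads, so their separate values are uncertain.

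**Figure D2:**
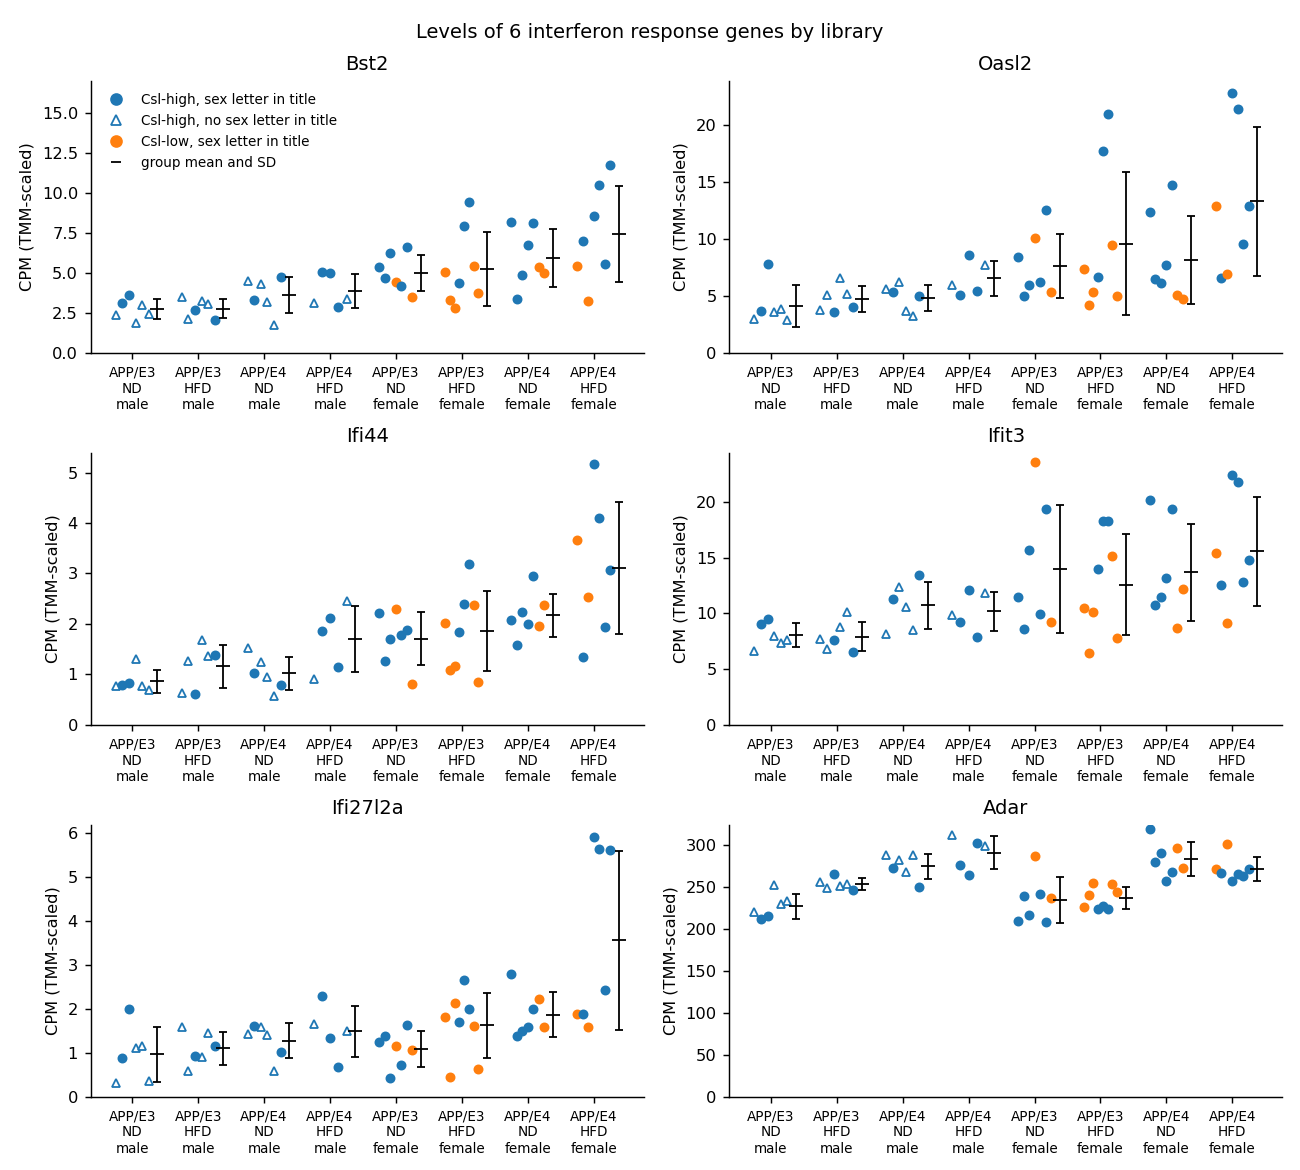
Levels in CPM (y axis) of Bst2, Oasl2, Ifi44, Ifit3, Ifi27l2a and Adar in each library, by group (x axis). Points are libraries, orange for Csl-low and open triangles for males with no sex letter in the title, and black bars are group means with SD. For Bst2 the males reach 5.04 CPM and the females 11.7 CPM.

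By family, 2 of 3 IFIT genes were called higher in females (Ifit1 by 0.66 and Ifit3), and Ifit2 was not (0.15). Of the guanylate-binding GTPases, Gbp2 and Gbp3 (by 0.52) were called and Gbp7 (0.24) was not. Of 8 members of the ISG15 and ubiquitin system, 4 were called. They were Isg15, the ubiquitin-like tag itself (by 0.51), Usp18, which removes the tag (by 0.72), Trim30a (by 0.44) and Rnf213 (by 0.42). Herc6, the mouse ISG15 ligase (0.01), Dtx3l (0.06), Trim21 (0.21) and Trim25 (0.28) were not called. Of the PARP enzymes, Parp9 was called (by 0.36) and Parp14 (0.34) was not. Of the other effectors, Ifitm3, which blocks viral fusion, was called higher by 0.45, Sp100 of the nuclear bodies by 0.41, Xaf1 by 0.36, Ifi27 by 0.29 and Ifi27l2a by 0.62. Not called were Slfn8 (0.37), Tor3a (0.21), Slfn5 (0.2), Samd9l (0.16), Cmpk2 (0.01), Adar (−0.03) and Ifi35 (−0.08). Leaving out 1 library ended the call of Isg15 for 21 libraries, of Ifi27 and Ifi27l2a for 11 each, and of Usp18 for 7. Trim30a, Gbp3, Slfn8 and Ifi27l2a have close relatives in the genome, and how reads that match several genes were counted is not given in the sources used here.

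The calls by sex were lost when the libraries with no sex letter in the title were left out. Among the remaining 9 males and 29 females, 40 of 42 members were higher in females, with a median of 0.28 and 17 at an unadjusted p under 0.05 by edgeR, but none was called, and 0.0519% of all genes were called higher. With title style as a term over all libraries, the median was 0.29 and 1 member, Ifi44, was called (0.0724% of all genes called higher). With title style and the Csl-low class as terms, the median was 0.41 and 6 members were called, Bst2, Oasl2, Ifi44, Rtp4, Rnf213 and Trim25 (0.145% of all genes called higher). Without the Csl-low libraries the median was 0.47. Bst2 had a median of 4.43 CPM in the 11 Csl-low females, 6.68 CPM in the other 18 females and 3.13 CPM in males.

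Inside each combination of genotype and diet, most members were higher in females and none was called. In APP/E3 ND mice 40 of 42 were higher in females, with a median of 0.28. There 0.0395% of all genes were called higher, and 12 members had an unadjusted p under 0.05, as had 6.55% of all genes. In APP/E3 HFD mice 37 were higher, with a median of 0.3. There 0.467% of all genes were called higher, and 12 members had an unadjusted p under 0.05, as had 17.7% of all genes. In APP/E4 ND mice 39 were higher, with a median of 0.39. The share of all genes called higher was 0.0461%, and 20 members had an unadjusted p under 0.05, as had 4.85% of all genes. In APP/E4 HFD mice 40 were higher, with a median of 0.35. The share of all genes called higher was 0.0461%, and 18 members had an unadjusted p under 0.05, as had 7.84% of all genes. Without the Csl-low libraries, 9 members were called in APP/E3 HFD mice and 1 in APP/E4 HFD mice. The shares of all genes called in these comparisons without the Csl-low libraries are not given here.

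**Figure D3:**
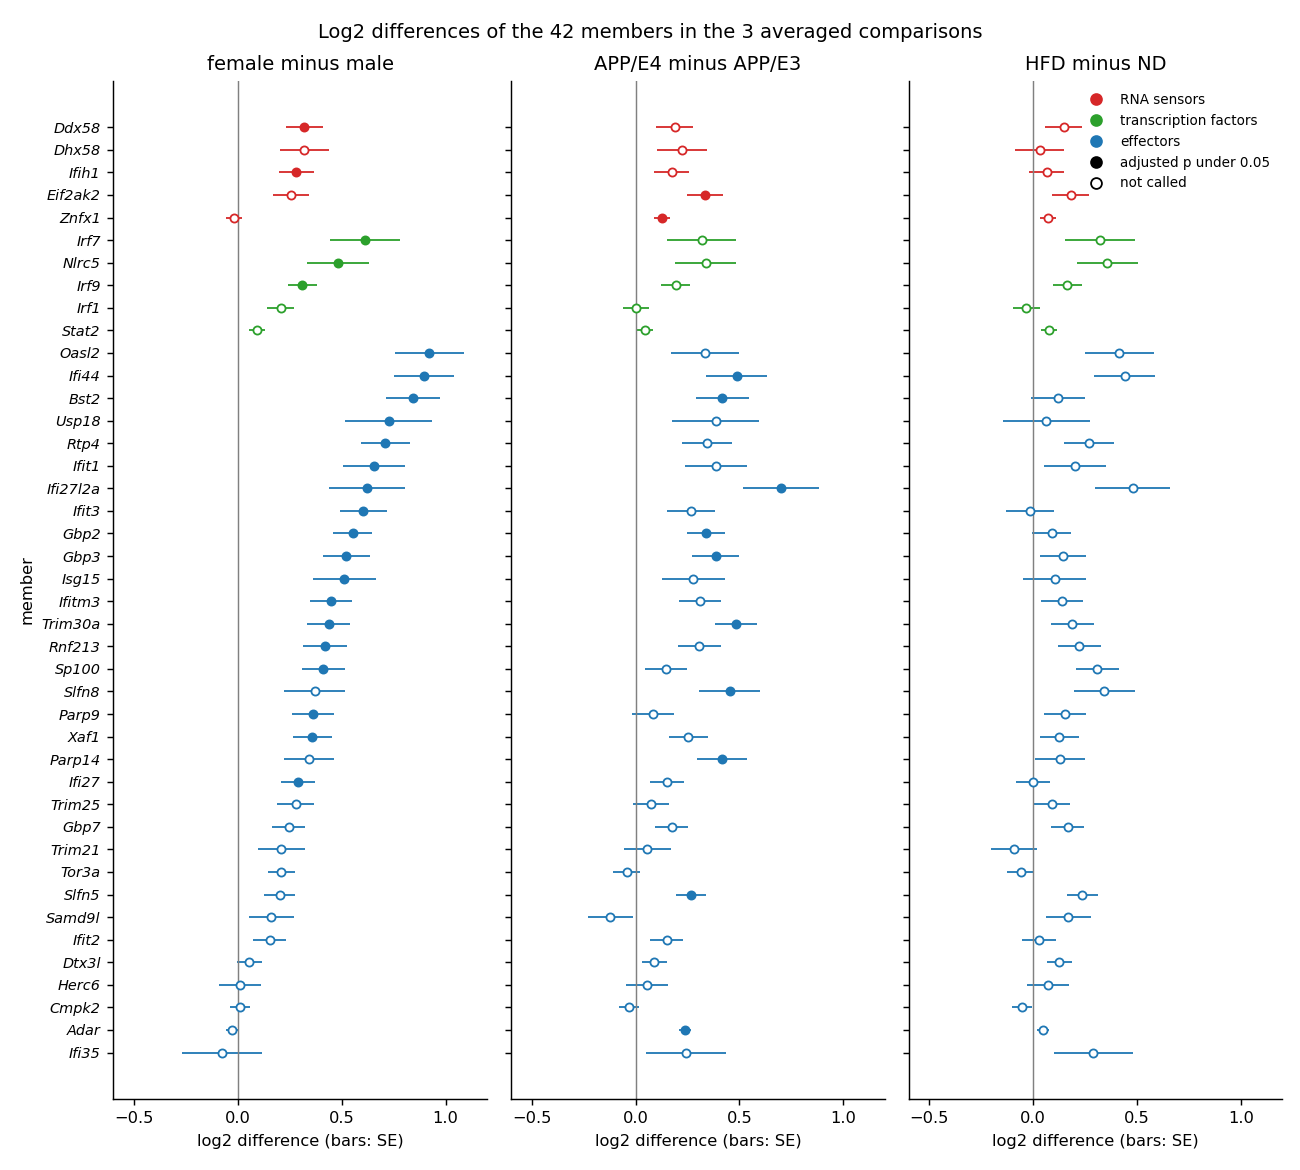
Log2 differences (x axis, with SE) of the 42 members (y axis), for female minus male, APP/E4 minus APP/E3 and HFD minus ND, each averaged over the other factors. Filled points have an adjusted p under 0.05, which 23 members reach by sex, 12 by genotype and 0 by diet.

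Markers of some cell types also differed by sex. Of all genes, 2.91% were called higher in females, and 671 of 15195 were called in either direction. Markers of astrocytes, oligodendrocytes, cortical neurons, perivascular macrophages, meningeal fibroblasts, choroid plexus and striatum were also listed and are not reported here. In bulk tissue, more cells of a type and more RNA per cell cannot be told apart. The summed level of 15 microglia markers ran from 679 to 1025 CPM in males (median 749.5) and from 688 to 1090.0 CPM in females (median 863), and 6 of 15 were called higher in females. The summed level of 13 markers of plaque-associated microglia ran from 375 to 628 CPM in males (median 424) and from 407 to 724 CPM in females (median 542), and 10 of 13 were called higher. The summed level of 10 endothelial markers ran from 251 to 399.7 CPM in males and from 260.3 to 369.7 CPM in females, and none of the 10 was called. Of 6 markers of granulocytes and blood, 3 were called lower in females, with sums from 1.32 to 70.9 CPM in males and from 0.752 to 195 CPM in females. Cd4 and Lck were measured for T cells, and the other 5 T cell markers and the 4 B cell markers were not found by symbol in the deposited counts. The part of any of these cells in the difference by sex was not tested.

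APP/E4 mice had higher levels of most members than APP/E3 mice. Fewer members were called than by sex in the fit over all libraries without added terms. With diets and sexes averaged, 39 of 42 were higher in APP/E4, 12 were called higher by edgeR and none lower, and 3.39% of all genes were called higher. The median log2 difference, APP/E4 minus APP/E3, was 0.25 over the members. The calls took in 2 of 5 sensors, none of the 5 transcription factors and 10 of 32 effectors.

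Adar, which edits adenosine to inosine in double-stranded RNA and so keeps self RNA from the sensors, had the smallest p of the members. It ran from 211 to 252 CPM in APP/E3 ND males (median 224), from 246 to 265 in APP/E3 HFD males (median 252), from 208 to 287 in APP/E3 ND females (median 236) and from 223 to 254 in APP/E3 HFD females (median 234). In APP/E4 it ran from 249 to 288 CPM in ND males (median 277), from 257 to 318 in ND females (median 279.5) and from 257 to 301 in HFD females (median 267). The 5 APP/E4 HFD males had 264, 276, 299, 302 and 312 CPM. The genotypes overlapped in part: 9 of 25 APP/E4 libraries stood above the highest APP/E3 library, and 19 of 27 APP/E3 libraries below the lowest APP/E4 library. The difference was 0.24 ± 0.03 (edgeR adjusted p = 5.39e-08). Adar was also the 1 member called in ND males (0.28 ± 0.06, edgeR adjusted p = 0.0117) and in ND females (0.28 ± 0.06, edgeR adjusted p = 0.00433). The call in ND males was lost without APP/E3 ND male 3, and without the libraries with no sex letter in the title.

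Ifi27l2a, an interferon-inducible membrane protein, had the widest genotype difference of the members. It ran from 0.310 to 2.0 CPM in APP/E3 ND males (median 0.990), from 0.585 to 1.6 in APP/E3 HFD males (median 1.04), from 0.427 to 1.63 in APP/E3 ND females (median 1.15) and from 0.439 to 2.65 in APP/E3 HFD females (median 1.76). In APP/E4 it ran from 0.579 to 1.6 CPM in ND males (median 1.42), from 1.37 to 2.8 in ND females (median 1.59) and from 1.59 to 5.92 in HFD females (median 2.42). The 5 APP/E4 HFD males had 0.683, 1.34, 1.49, 1.65 and 2.3 CPM. In 3 APP/E4 HFD females Ifi27l2a stood at 5.61, 5.64 and 5.92 CPM, and in no other library above 2.8 CPM. The difference was 0.7 ± 0.18 (edgeR adjusted p = 0.0117), and the median count per library was 14, which limits the precision of each value.

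Trim30a, a ubiquitin ligase that restrains inflammatory signalling, ran from 1.56 to 5.66 CPM in APP/E3 (median 3.7) and from 3.29 to 8.69 CPM in APP/E4 (median 4.78), a difference of 0.48 ± 0.1 (edgeR adjusted p = 0.00167). Eif2ak2 ran from 3.91 to 11.6 CPM in APP/E3 (median 6.56) and from 5.6 to 13.8 CPM in APP/E4 (median 8.19), a difference of 0.33 ± 0.09 (edgeR adjusted p = 0.013). Znfx1 ran from 71.1 to 119.8 CPM in APP/E3 (median 102) and from 91.1 to 126 CPM in APP/E4 (median 111), a difference of 0.13 ± 0.04 (edgeR adjusted p = 0.0366). The genotypes overlapped for all 3 genes. The other calls were Slfn5, of the schlafen family (0.27), Gbp2 (0.34), Gbp3 (0.39), Parp14 (0.42), Bst2 (0.42), Slfn8 (0.45) and Ifi44 (0.49). Leaving out 1 library ended the call of Slfn8 for 34 libraries, of Bst2 for 13, of Znfx1 for 9 and of Ifi44 for 5.

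The 5 transcription factors were not called by genotype, with differences of 0.0 ± 0.06 for Irf1, 0.05 ± 0.04 for Stat2, 0.19 ± 0.07 for Irf9, 0.32 ± 0.17 for Irf7 and 0.34 ± 0.15 for Nlrc5. The sensors Ddx58 (0.19), Ifih1 (0.17) and Dhx58 (0.22) were not called either. The 22 effectors without a call lay between −0.12 (Samd9l) and 0.39 (Ifit1). Bst2, Gbp2, Gbp3, Ifi27l2a, Ifi44 and Trim30a were called both by sex and by genotype. Adar, Eif2ak2, Parp14, Slfn5, Slfn8 and Znfx1 were called by genotype and not by sex, 17 members by sex and not by genotype, and 13 by neither. Both comparisons use the same 52 libraries.

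Without the Csl-low libraries, 6 of the 12 genotype calls remained (3.55% of all genes called higher). Without the libraries with no sex letter in the title, Adar alone remained (0.415% of all genes called higher), with a median over members of 0.24. With title style as a term, 12 members were called by genotype, where 1 was by sex. With title style and the Csl-low class as terms, 12 were called by genotype, where 6 were by sex. In both of these fits Rnf213 was called and Slfn8 was not. In ND males 32 of 42 members were higher in APP/E4, with a median of 0.13. There 1 member, Adar, and 0.191% of all genes were called higher, and 3 members and 11.0% of all genes had an unadjusted p under 0.05. In ND females 32 were higher, with a median of 0.16. Again 1 member, Adar, and 0.434% of all genes were called higher, and 6 members and 15.8% of all genes had an unadjusted p under 0.05. In HFD males 37 were higher, with a median of 0.26. No member was called, against 0.171% of all genes called higher, and 8 members and 5.39% of all genes had an unadjusted p under 0.05. In HFD females 40 were higher, with a median of 0.34. No member was called by edgeR, against 0.369% of all genes called higher, and 15 members and 12% of all genes had an unadjusted p under 0.05. DESeq2 called 3 members there, and its share of all genes is not given here.

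The summed plaque-associated markers ran from 375 to 558 CPM in APP/E3 (median 455) and from 393 to 724 CPM in APP/E4 (median 543), and 9 of 13 were called higher in APP/E4. The summed microglia markers ran from 679 to 1001 CPM in APP/E3 (median 756) and from 687 to 1090.0 CPM in APP/E4 (median 789), and 2 of 15 were called higher. Of all genes, 3.39% were called higher in APP/E4. The part of these cells in the difference by genotype was not tested.

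**Figure D4:**
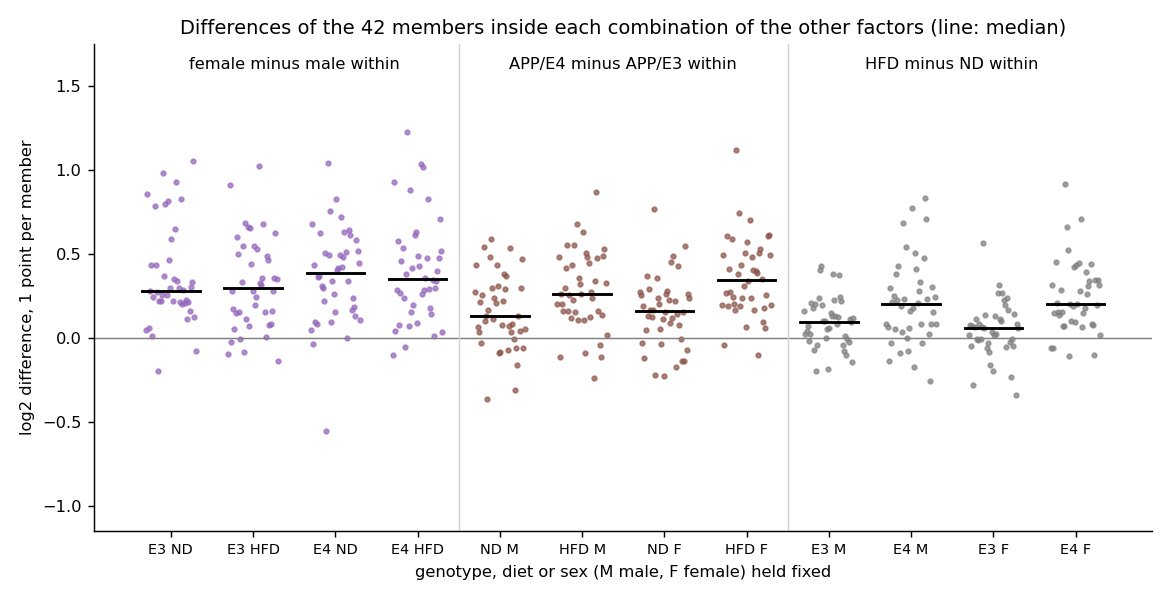
Log2 differences (y axis) of the 42 members inside each combination of the other factors (x axis). Medians over the members lie between 0.28 and 0.39 for female minus male, between 0.13 and 0.34 for APP/E4 minus APP/E3, and between 0.06 and 0.2 for HFD minus ND.

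No member passed the threshold by diet. Averaged over genotype and sex, 36 of 42 members were higher on HFD, with a median of 0.13 (−0.002 over all genes), and none was called by edgeR, where 0.0% of all genes were called. DESeq2 and limma voom called no member either. By edgeR 13 members had an unadjusted p under 0.05, all higher on HFD, against 9.2% of all genes in either direction. Slfn5 ran from 5.96 to 15.5 CPM on ND (median 9.07) and from 6.53 to 17.2 CPM on HFD (median 10.9), a difference of 0.24 ± 0.07 (edgeR adjusted p = 0.353). Ifi44 ran from 0.579 to 2.95 CPM on ND (median 1.42) and from 0.618 to 5.16 CPM on HFD (median 1.85), a difference of 0.44 ± 0.15 (edgeR adjusted p = 0.367). Sp100 ran from 1.35 to 5.26 CPM on ND (median 2.89) and from 2.02 to 5.93 CPM on HFD (median 3.58), a difference of 0.31 ± 0.1 (edgeR adjusted p = 0.367). The diets overlapped for all 3 genes.

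By role, the diet differences lay between 0.03 (Dhx58) and 0.18 (Eif2ak2) for the sensors, −0.03 (Irf1) and 0.36 (Nlrc5) for the transcription factors, and −0.09 (Trim21) and 0.48 (Ifi27l2a) for the effectors. In APP/E3 males 30 of 42 members were higher on HFD (median 0.09), in APP/E3 females 26 (median 0.06), in APP/E4 males 34 (median 0.2) and in APP/E4 females 38 (median 0.2). No member was called in any of them. The share of all genes called was 0.0% in APP/E3 males, 0.0263% in APP/E3 females, 0.0% in APP/E4 males and 0.0% in APP/E4 females. At an unadjusted p under 0.05 by edgeR stood 1 member in APP/E3 males (13.6% of all genes), 0 in APP/E3 females (4.69%), 6 in APP/E4 males (3.65%) and 8 in APP/E4 females (7.9%). In the authors' deposited table, the coefficient was negative for 37 of 42 members, and its sign was opposite to that of HFD minus ND here in 96.3% of all genes. Its Pearson r with HFD minus ND here was −0.925 over genes. The sources used here do not give the direction of the coefficient, so a negative value cannot be read as lower on HFD. Among members, 7 in the authors' deposited table had a p under 0.05, all with negative coefficients (Nlrc5, Slfn5, Sp100, Dtx3l, Oasl2, Irf9 and Ifi44), as had 7.69% of all genes in either direction.

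Interactions tested whether the difference by 1 factor changed with another. For sex with genotype no member was called (0.00658% of all genes), and 1 had an unadjusted p under 0.05 by edgeR (5.11% of all genes). For sex with diet no member was called (0.0%), and 1 had an unadjusted p under 0.05 (7.84%). For genotype with diet no member was called (0.0%), and 4 had an unadjusted p under 0.05 (9.97%). In the last, 34 of 42 members had the larger diet difference in APP/E4, with a median of 0.14, and the smallest p was that of Sp100 (0.53 ± 0.21, edgeR adjusted p = 0.469). The differences inside the combinations of genotype, diet and sex are therefore not shown to differ from each other.

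The members varied together from animal to animal. After group means were taken out, each member's log2 CPM was set against the mean of the other 41 over the 52 libraries. The closest were Oasl2 (Pearson r = 0.91, Spearman rho = 0.89), Ifit3 (r = 0.865, rho = 0.84), Ifit1 (r = 0.85, rho = 0.825), Irf7 (r = 0.85, rho = 0.83) and Gbp3 (r = 0.84, rho = 0.83). Without the 2 libraries farthest from the median, r lay between 0.82 (Irf7) and 0.895 (Oasl2) for these 5. Herc6 (0.09), Znfx1 (0.06) and Adar (−0.165) had the lowest values. In all, 32 of 42 members had r above 0.5, and 33 had it within the 41 libraries that are not Csl-low, while 0.634% of non-members did over the 52 libraries. The median r was 0.42 over the 861 pairs of members (31.4% of them above 0.5) and 0.0 over pairs of all genes tested (2.34% above 0.5). Libraries share depth and RNA quality across genes, so these values are a description with no test. The members were also chosen with earlier results of these data known.

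**Figure D5:**
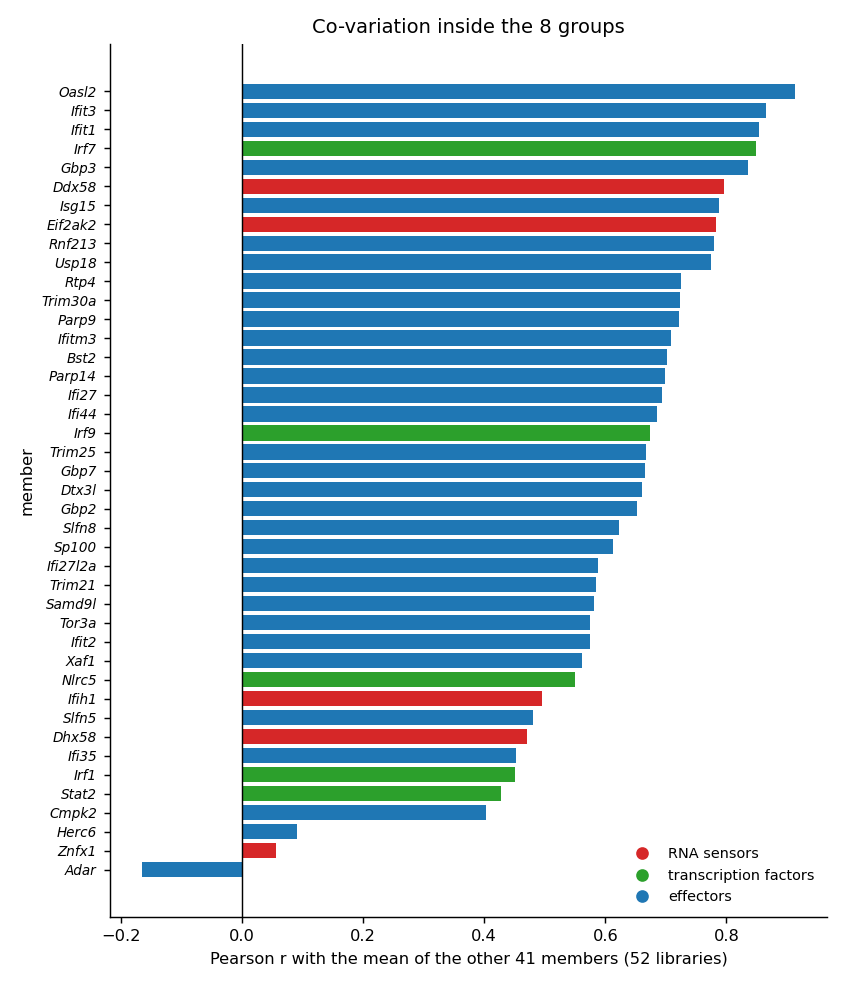
Pearson r (x axis) of each member (y axis) with the mean of the other 41 members over 52 libraries, after group means were taken out. Oasl2 is highest at 0.91, and Herc6, Znfx1 and Adar are lowest at 0.09, 0.06 and −0.165.

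The rest of the pathway was described with a list of 48 genes that are not members, of which 34 were tested. By sex 26 of 34 were higher in females, with a median of 0.05. Irf8, a transcription factor of myeloid cells, was called higher (0.35 ± 0.09, edgeR adjusted p = 0.0172), as was Ifnar2, a chain of the type I receptor (0.18 ± 0.05, edgeR adjusted p = 0.0175). None of the 5 kinases, the 9 nucleic acid receptors and adapters or the 9 negative regulators tested was called by sex. Of all genes, 2.91% were called higher by sex. By genotype Rnaseh2c, a subunit of ribonuclease H2, was called lower in APP/E4 (−0.36 ± 0.08, edgeR adjusted p = 0.00352). Over all genes, 1032 of 15195 were called by genotype in either direction. By diet none of the 34 was called. The 11 interferon genes on the list were not found by symbol in the deposited counts.

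Of 78 further interferon-stimulated genes outside the members, 58 were tested. By sex 53 of 58 were higher in females, with a median of 0.27, and 12 were called higher, where 2.91% of all genes were. The 12 included Lgals3bp (0.56 ± 0.1, edgeR adjusted p = 0.000553), the immunoproteasome subunit Psmb8 (0.46 ± 0.1, edgeR adjusted p = 0.00202) and the chemokine Cxcl10 (1.23 ± 0.32, edgeR adjusted p = 0.0171). By genotype 51 of 58 were higher in APP/E4 and 3 were called, Lgals3bp (0.46 ± 0.1, edgeR adjusted p = 0.00277), Irgm1, a GTPase of antimicrobial defence (0.34 ± 0.08, edgeR adjusted p = 0.00396), and Psmb8 (0.31 ± 0.1, edgeR adjusted p = 0.0337). Of all genes, 3.39% were called higher by genotype, so 3 of 58 lies near the share over all genes. By diet 45 of 58 were higher on HFD and none was called.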

How the data were processed

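Frontal cortex RNA (RIN above 8) of 52 mice was sequenced with an Illumina mRNA kit. The authors deposited whole-number read counts per gene, made with Subread and featureCounts on mm9 per the submitters' processing notes, which also name limma and edgeR 3.14.0. The authors' deposited table of log2 coefficients and p-values was copied as it stands. How strand and reads matching several genes were treated is not given in the sources used here. The gene symbols of 24 rows that had been turned into dates were restored.

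Here, counts were tested with edgeR 4.0.16 (R 4.3.3), using TMM scaling, the tool's filter on low counts and quasi-likelihood tests in 1 fit over all 8 groups. Benjamini-Hochberg adjustment ran over all 15195 genes tested, and a call means an adjusted p under 0.05. The scripts were tested on simulated data. The members and lists were chosen with earlier results of these data known. Members given by library were the sensors, the transcription factors, and the effectors with the smallest p (6 by sex, 3 by genotype, 3 by diet). Other lists were named where they passed, at most 6 per list and comparison, and 1 gene of the pathway list is not reported here. Alternatives were DESeq2 1.42.0, limma 3.58.1 voom, RLE size factors, no filter, an adjusted p under 0.01, terms for or removal of the Csl-low and unlettered libraries, and leaving out each library. No 2 libraries of a group were alike within sampling noise (146 pairs, chi-square per gene at least 2.88). P-values measure the spread between these libraries only.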

Additional observations from a re-analysis of the deposited data

Results flagged for a closer look

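In 8 groups, 22 quantities (the genes given by library and the mean of the members) were searched for a single library far from the rest of its group. Of 176 such searches 9 found one, which is near the rate of about 1 in 20 that chance alone finds. The quantities vary together within a library, so the searches are not independent of each other. They fell in 7 libraries. APP/E3 ND male 3 was highest for Ddx58 at 9.64 CPM (others 4.83 to 6.54) and for Oasl2 at 7.82 CPM (others 2.88 to 3.87). APP/E3 ND female 4, a Csl-low library, was highest for Ifih1 at 13.6 CPM (others 4.86 to 7.87) and for Adar at 287 CPM (others 208 to 241). APP/E3 ND male 2 was lowest for Znfx1 at 82.6 CPM (others 101 to 108), and APP/E3 ND male 4 was highest for Ifi44 at 1.30 CPM (others 0.691 to 0.831). APP/E3 ND female 6 was highest for Irf9 at 15.9 CPM (others 10.4 to 12.5). APP/E4 HFD female 3 was highest for Adar at 301 CPM (others 257 to 272), and APP/E3 HFD female 5 was highest for Sp100 at 5.93 CPM (others 2.67 to 4.03).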

How the results depend on the processing

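Called members by sex numbered 23, and 6 with title style and Csl-low class as terms, 1 with title style as a term, 0 without the libraries with no sex letter in the title and 11 at an adjusted p under 0.01. The count by sex was 30 without the Csl-low libraries (789 of all genes called in either direction) and 27 with the class term (655). It was 27 by DESeq2 (837) and 19 by limma voom (802), against 671 genes in the fit behind the 23 calls. Called members by genotype numbered 12 (1032 of all genes called in either direction). They numbered 6 without the Csl-low libraries (1063), 1 without the libraries with no sex letter (116) and 2 at an adjusted p under 0.01. By DESeq2 there were 14 (1217), by limma voom 13 (998) and with the class term 11 (1336). With title style as a term there were 12 (1324), and with both terms 12 (1684). Leaving out 1 library gave 17 to 27 by sex and 9 to 18 by genotype (18 without APP/E3 ND female 4). By sex in APP/E3 ND mice no filter, DESeq2 and the class term each called 1 member instead of 0, in APP/E3 HFD mice DESeq2 called 1, the class term 2 and the fit without Csl-low libraries 9, and in APP/E4 HFD mice the class term and the fit without Csl-low libraries called 1 each. By genotype in ND males the call of Adar was lost (0) without the unlettered libraries and at an adjusted p under 0.01, and in HFD females DESeq2 called 3 and limma voom, the class term and both terms 1 each. Leaving out 1 library gave 0 to 1 by sex in APP/E3 ND and in APP/E3 HFD mice, and by genotype 0 to 1 in ND males, 1 to 2 in ND females and 0 to 2 in HFD females. In the other comparisons it gave 0 to 0. The causes were not tested. The 23 calls by sex and 12 by genotype kept their sign under the other tools, scalings, filter, terms and removals of the Csl-low or unlettered libraries. Members without a call changed sign in places: without the unlettered libraries 40 members were higher by sex (39 with all libraries), 37 by genotype (39) and 32 by diet (36). Depth limits the members with few counts, such as Ifi35 (median 5.5 counts). No paired analysis was run, since each library came from a different mouse and the labels name no pairs.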

Other observations

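Each gene outside the members was also set against the mean of the members over the 52 libraries, after group means were taken out, as a description with no test. Among the closest were Ifit3b (Pearson r = 0.789), Lgals3bp (0.786), Irgm1 (0.774), Irgm2 (0.718) and Iigp1 (0.711). Of the 25 closest, 18 were on the lists of the pathway or of further interferon-stimulated genes. These genes were chosen after their values were seen.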
